A study of Macaca mulatta with 26 samples.

Results

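Single-exon circRNAs are circles made of 1 exon whose end was joined to its own start. In vastus lateralis muscle of rhesus monkeys, 473 of 8140 circRNAs were of this kind, counting every circRNA seen with 2 or more junction reads over 24 libraries. They held 6717 of 87047 junction reads. They were chosen by their annotation alone, as circRNAs listed as exonic with an exon count of 1, where a circRNA was a distinct combination of position, strand and exon structure. The 24 libraries came from 24 monkeys, 6 young (0.003 to 6 years old, 3 of them under 1 year), 11 middle-aged (11.3 to 16.93 years) and 7 old (25.7 to 40.9 years), all given standard diets without restriction. One library of a young monkey (0.005 years) and one of an old monkey (40.1 years) were sequenced in depth, to many more reads than the others, and are described apart. All RNA was digested with RNase R, which degrades linear RNA, so levels describe circles within the circular fraction and not their ratio to linear RNA.

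A circRNA forms when the spliceosome joins a downstream splice donor to an upstream acceptor, a back-splice. In a single-exon circle both sites belong to the same exon, so the exon has to be long enough to fold onto itself, and known circles of this kind in other mammals are often made of long exons bordered by long introns. Circles lack free ends and are degraded slowly, and skeletal muscle is rich in long, many-exon transcripts that can host them. The circRNAs are named here by the identifiers given to them in the study (mmu_circ_ and a number), or, where none was matched, by rheMac2 position counted from 1. A level is the number of junction reads per 10000 junction reads of the library. As each circle is counted at 1 junction, levels do not scale with its length. Muscle is a mixture of cells, and fewer cells of a type cannot be told apart from fewer circles per cell.

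Junction reads ranged from 822 to 11561 per library with a median of 3924, and young (median 4568), middle-aged (2657) and old (4924) libraries overlapped in depth. A circRNA that was not listed for a library was counted as 0. Such a 0 can also mean that the exon was not part of the transcripts assembled for that library.

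The 473 exons were between 82 and 10309 nt long, with a median of 290 nt and quartiles of 208 and 677 nt. Exons of 300 nt or less made up 245 of the 473, and 164 exons were longer than 500 nt. The class above 200 and up to 300 nt was the fullest with 143 exons, that up to 500 nt held 64, and that up to 1000 nt held 99. The exons over 500 nt were 34.7% of the circRNAs and held 43.8% of the reads. The longest circle was chr6:75951003-75961311 (plus strand), a single exon of 10309 nt with 18 reads in 5 libraries, of which 3 were middle-aged, 1 was young and 1 was old. It was followed by chr6:79724491-79729758 with 5268 nt and 3 reads, and mmu_circ_000855 (chr1:16417046-16421432) with 4387 nt and 2 reads. The shortest circles were chr14:7901982-7902063 with 82 nt and 3 reads, chr15:106872942-106873058 with 117 nt and 2 reads, and chr19:11553108-11553234 with 127 nt and 2 reads. All 3 shortest exons, and 1 of the 3 longest, also lay within listed circles of several exons. The length was a multiple of 3 nt in 36.8% of the single-exon circles, against 36.7% of circles of 2 exons and 36.8% of circles of 3 or more exons.

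**Figure D1:**
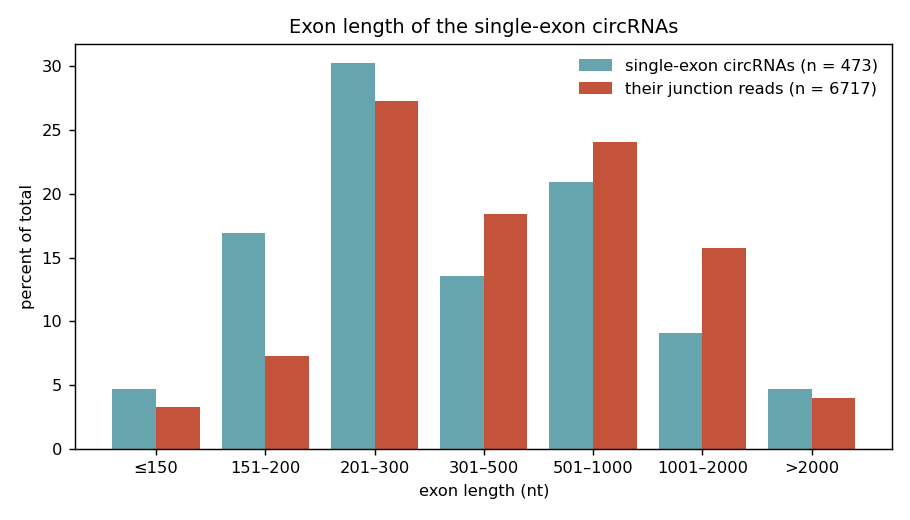
Exon length classes in nt (x axis) against percent of the total (y axis), for the 473 single-exon circRNAs and for their 6717 junction reads. The class above 200 and up to 300 nt is the fullest in both, with 815 of its 1830 reads from the most abundant circle, mmu_circ_015464. The reads are shifted towards the classes between 300 and 2000 nt, while the class above 2000 nt has 4.65% of the circles and 3.98% of the reads.

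Within each library, the exon of a single-exon circle was far longer than the exons of the other circles. The median exon size of single-exon circRNAs was 403.4 ± 89.9 nt (mean ± SD of 24 library medians, range 213 to 562), against 126.0 ± 3.2 nt in circles of 2 exons and 114.5 ± 3.5 nt in circles of 3 or more exons. It was higher in 24 of 24 libraries in both comparisons (permutation test by sign flips over libraries, two-sided, p = 1e-05, the smallest that 100000 resamples can give, adjusted p = 2.3e-05 over 14 comparisons). The whole circle was also longer than the 2-exon circle, which had 258.4 ± 6.2 nt over its exons, in 23 of 24 libraries (adjusted p = 2.3e-05). A circle listed in many libraries enters many library medians, so the p-values describe libraries and not independent circles. With every distinct circle counted once, the median was 290 nt for single-exon and 259 nt for 2-exon circles, with first quartiles of 208 and 215 nt. The single-exon circle was shorter than the circle of 3 or more exons, with 489.6 ± 26.9 nt, in 20 of 24 libraries (permutation test, adjusted p = 4e-05). With each circle weighted by its reads, the difference from circles of 3 or more exons was 9.75 nt in the other direction (permutation test, adjusted p = 0.72). The single-exon median, which rests on fewer circles per library, spread more between libraries than that of the other classes. It was lowest in middle-aged 10, which had the fewest junction reads, and highest in old 7. By age group the library medians ran from 358 to 551 nt in the young, from 213 to 535 nt in the middle-aged and from 266 to 562 nt in the old monkeys, so the groups overlapped.

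The introns beside these exons were long. Summed over both sides, the library medians averaged 24382 ± 6832 nt for single-exon circles, 13104 ± 891 nt for 2-exon circles and 19905 ± 1756 nt for circles of 3 or more exons. The single-exon value was higher than the 2-exon value in 23 of 24 libraries (permutation test by sign flips, adjusted p = 2.3e-05) and higher than that of the longer circles in 18 of 24 (adjusted p = 0.0032). Against circles of 3 or more exons, the downstream introns had 10585 ± 3818 nt against 7796 ± 594 nt (18 of 24 libraries, permutation test, adjusted p = 0.0011). On the upstream side the values were 9021 ± 1946 and 8343 ± 817 nt (15 of 24 libraries, permutation test, adjusted p = 0.12), and this difference passed among circles with 3 or more reads (991.5 nt, adjusted p = 0.013) and without the most abundant single-exon circle (924 nt, adjusted p = 0.041). The downstream difference did not pass when circles were weighted by their reads (980 nt, permutation test, adjusted p = 0.27). Whether the upstream and downstream differences differ from each other was not tested. Libraries share many of their circles, so these p-values too describe libraries and not independent circles. Intron lengths of the classes were not compared with every circle counted once.

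**Figure D2:**
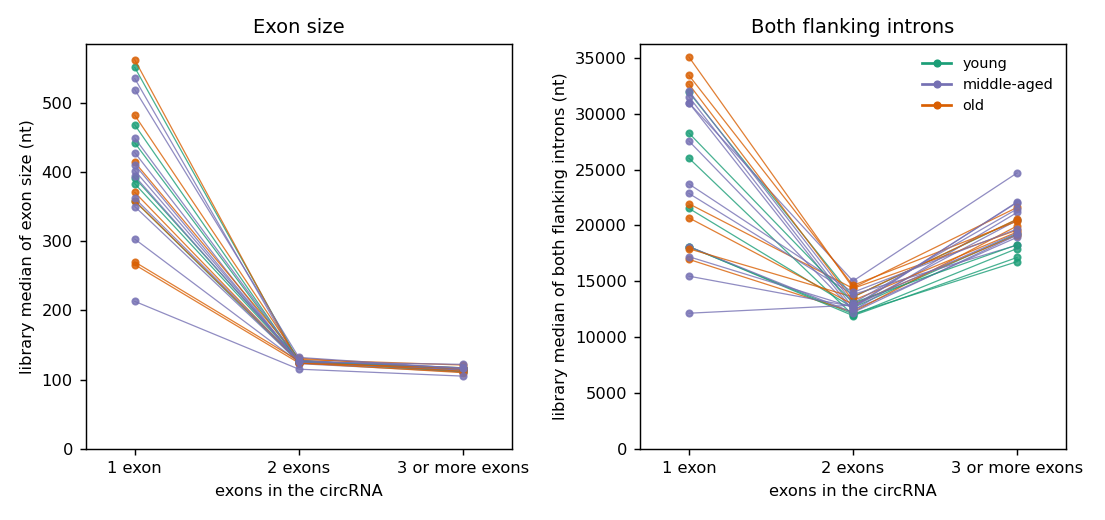
Library medians of exon size (left, nt) and of the summed length of both flanking introns (right, nt) for circRNAs of 1, 2, and 3 or more exons, with 1 line for each of the 24 libraries, coloured by age group. Exon size falls from 1 to 2 exons in every library, and the flanking introns of single-exon circles are the longer ones in 23 of 24 libraries against 2-exon circles.

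Single exons among themselves ranged from those between very short introns to those between very long ones. Over the 473 exons counted once each, the median upstream intron was 6819 nt and the median downstream intron 6700.5 nt, below the library medians, in which circles found in many libraries weigh more. Of 471 exons with both introns annotated, 130 had more than 10000 nt on each side and held 2383 reads. Another 27 had less than 500 nt on each side and held 166 reads. Circles were given the same host only where 1 transcript carried them. By this count 2 hosts had 3 or more single-exon circles, with short introns beside most of them. On the minus strand of chromosome 12, 7 single-exon circles of 166 to 306 nt lay between 42205620 and 42409425, with upstream introns of 80 to 5116 nt and downstream introns of 94 to 2115 nt. This locus had 32 reads in all, and 2 of its circles were carried by the Ensembl transcript ENSMMUT00000012655. The circle with most reads there was chr12:42400387-42400575, with 10 reads in 5 libraries. The other circles of this locus were chr12:42205620-42205919, chr12:42255970-42256160, chr12:42262640-42262945, chr12:42364610-42364888, chr12:42373625-42373906 and chr12:42409260-42409425, with 2 to 8 reads each. On the minus strand of chromosome 16, ENSMMUT00000013665 carried 3 circles of 146 to 177 nt between 10282476 and 10286780, with 76 to 98 nt of intron on either side and 27 reads. Of these, chr16:10286376-10286521 had 20 reads in 10 libraries, and chr16:10286604-10286780 and chr16:10282476-10282641 had 5 and 2 reads. Of 445 hosts told apart in this way, 423 had 1 single-exon circle and 20 had 2. Circles of 1 gene on different transcripts, or on transcripts assembled in different libraries, could be counted as different hosts. These counts can therefore overstate how often a gene had a lone single-exon circle.

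Many single-exon circles shared their exon with larger circles. For 162 of the 473, the exon also lay inside at least 1 listed circle of several exons, with a median of 1 such circle and at most 13. The exon's lower genomic coordinate was also that of a larger circle on the same strand in 91 cases, and its higher coordinate in 93 cases. These are not the 5′ and 3′ sides of the exon, as both strands were counted together. Only 14 of the 473 had a junction that was listed with another exon structure in any library. An Ensembl transcript carried 237 of the circles in at least 1 library. The other 236 were listed on assembled transcripts alone and held 4026 of the 6717 reads.

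Gene symbols could be given to 18 of the 473 circles, in 14 genes, through the Ensembl gene under the exon. They held 64 reads in all. Gene positions came only from the study's list of additional in-depth circRNAs, which covers part of the genes. A circle without a symbol can therefore lie in a known gene. On chromosome 1, 2 circles overlapped in HP1BP3, which encodes a heterochromatin protein 1 binding protein. These were mmu_circ_001406 (chr1:23416565-23416724, 160 nt, 4 reads in 3 libraries) and mmu_circ_001407 (chr1:23416565-23416817, 253 nt, 5 reads in 1 library), which share the 3′ end of the exon on the minus strand. NUP133, which encodes a scaffold nucleoporin of the nuclear pore, held 3 circles with 2 reads each (mmu_circ_001396, mmu_circ_001398 and mmu_circ_001390), of which 1 transcript carried only the first 2, and KIAA0319L held 2, with 3 and 2 reads. The most frequent named circle was chr11:85143231-85144165 in TMCC1, which encodes a membrane protein of the endoplasmic reticulum, with 935 nt and 9 reads in 6 libraries. MACF1, which encodes a cytoskeletal linker of microtubules and actin, held mmu_circ_001679 with 227 nt and 7 reads in 4 libraries. EEA1, which encodes a tether of early endosomes, held chr11:94000949-94001143 with 195 nt and 6 reads in 5 libraries. Other hosts included RERE, TUT4, EVI5, ST7L, PRPF3, USP15 and RPN1, with 2 to 4 reads per circle. None of the circles tested between age groups lay in a gene that could be named, and the hosts of well-known single-exon circles in other species (HIPK3, HIPK2, ZNF609, SLC8A1, CDYL and CDR1) and the muscle and other cell type markers could not be paired with positions here.

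A few circles held much of the reads. The 10 most abundant had 2612 of the 6717 reads, 154 of the 473 had 2 reads, and the median circle had 4 reads in 3 libraries. Just outside the minimum, 631 further single-exon circles had 1 read over the 24 libraries. Within a library a listed single-exon circle had 2.77 ± 0.69 reads on average, against 2.36 ± 0.54 for 2-exon circles (higher in 19 of 24 libraries, permutation test by sign flips, adjusted p = 0.00012) and 2.39 ± 0.55 for circles of 3 or more exons (21 of 24, adjusted p = 8.7e-05). The share of circles seen with a single read was 54.7% ± 8.6, against 58.5% ± 9.3 (permutation test, adjusted p = 0.013) and 59.5% ± 7.8 (adjusted p = 0.00018). The excess in reads rested largely on 1 circle. Without mmu_circ_015464 it was 0.10 reads against 2-exon circles (17 of 24 libraries, permutation test, adjusted p = 0.17) and 0.068 against longer ones (15 of 24, adjusted p = 0.23), and the share of circles with 1 read was then different by -2.95 percentage points from that of 2-exon circles (adjusted p = 0.059). Among circles on Ensembl transcripts alone, the excess in reads was lost, with -0.023 reads against 2-exon circles (permutation test, adjusted p = 0.90) and -0.17 against longer ones (adjusted p = 0.14).

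The most abundant single-exon circle was mmu_circ_015464 (chr6:134290743-134290950, plus strand), an exon of 208 nt between introns of 1280 and 2769 nt. It was the only one listed in all 24 libraries, with 815 reads or 12.1% of all single-exon reads. Its level ran from 30.1 to 142 per 10000 in the young (median 74.8), from 26.1 to 158 in the middle-aged (median 96.6) and from 56.5 to 97.6 in the old libraries (median 69.1). The ranges of the 3 groups overlapped throughout, and the old libraries lay inside the spread of the other groups. The next were mmu_circ_018406 (chr8:54406860-54407261, 402 nt, 374 reads in 23 libraries) and mmu_circ_016934 (chr7:20095754-20096884, 1131 nt, 318 reads in 20 libraries). The level of mmu_circ_018406 was 40.8 ± 22.1 (SD, n = 24) and that of mmu_circ_016934 was 33.6 ± 21.6. The difference between these means is smaller than the spread of either between libraries, and the paired difference within libraries was not tested.

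Most of the other abundant circles were long exons. Of the 10 with the highest mean level, 8 exceeded 500 nt. The exon of mmu_circ_007566 (chr15:60489616-60491585, carried by ENSMMUT00000046222) has 1970 nt and an upstream intron of 111430 nt, and that of mmu_circ_010992 (chr2:20044064-20046839, ENSMMUT00000004170) has 2776 nt and an upstream intron of 74109 nt. In mmu_circ_014010 (chr4:4766091-4766757, ENSMMUT00000006997) an exon of 667 nt follows an intron of 155700 nt. The remaining abundant circles were mmu_circ_010404 (chr2:103014134-103015114, 981 nt), mmu_circ_019458 (chr9:69124976-69125878, 903 nt), mmu_circ_008099 (chr16:30281400-30281950, 551 nt) and mmu_circ_015451 (chr6:132617344-132617915, 572 nt). The exon of mmu_circ_010404 stood out by its surroundings, as it also lay inside 12 larger circles with 1665 reads in all, against 245 reads for the single-exon circle. By contrast, the exons of mmu_circ_007566, mmu_circ_019458, mmu_circ_010992 and mmu_circ_014010 lay in no listed larger circle.

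The share of single-exon circles in exonic junction reads was compared between age groups to ask whether this class of circle changes with age. Young monkeys had 8.34% ± 1.52 (SD, n = 6), middle-aged monkeys 8.55% ± 1.18 (n = 11) and old monkeys 8.26% ± 1.21 (n = 7). Single libraries ran from 5.98% to 10.8%, and the ranges of the groups overlapped. Old and young differed by -0.084 percentage points (exact permutation test, two-sided, p = 0.91), middle-aged and young by 0.22 points (exact p = 0.74), and old and middle-aged by -0.30 points (exact p = 0.61), with an adjusted p of 0.91 for each of the 3. Counted as distinct circles, single-exon circles were 7.43% ± 1.46 of exonic circRNAs in the young, 7.41% ± 1.12 in the middle-aged and 7.26% ± 0.60 in the old libraries (exact permutation p = 0.79, 0.97 and 0.76 for old against young, middle-aged against young and old against middle-aged). Over the 24 libraries the read share had a Pearson r of -0.27 with the logarithm of junction reads (permutation p = 0.19) and a Spearman rho of -0.29 (p = 0.17). With the share of intronic circles in junction reads it had an r of 0.31 (permutation p = 0.15) and a rho of 0.36 (p = 0.089). Adjusted over the 2 relations, p was 0.19 for both r and 0.17 for both rho, and r without the 2 libraries farthest from the median was -0.39 and 0.32. Monkeys listed as young included 3 under 1 year. Without them, old minus young was -1.22 percentage points in the share of reads and middle-aged minus young -0.92 points (exact permutation tests, adjusted p = 0.40 for both). In the share of distinct circles, old minus young was then -1.24 points (exact permutation test, adjusted p = 0.10).

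**Figure D3:**
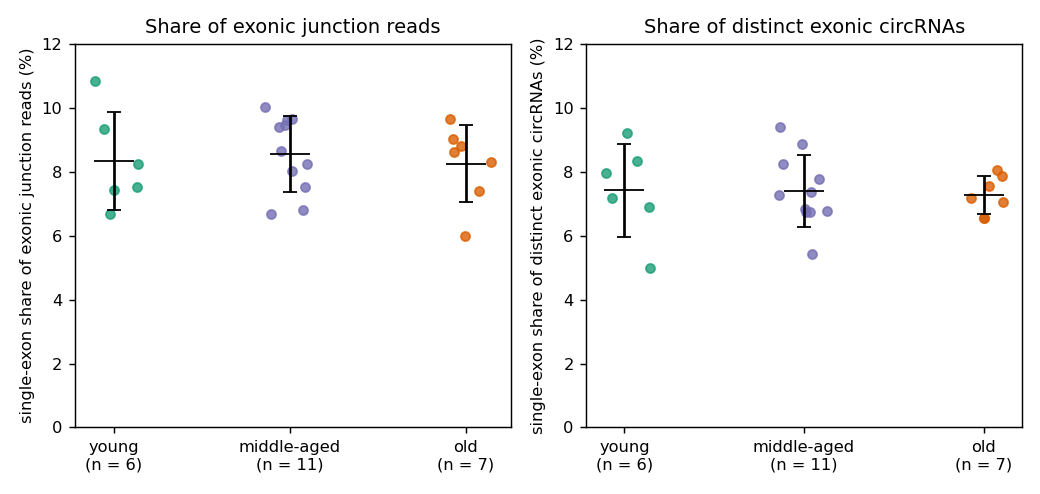
Single-exon share (y axis, percent) of exonic junction reads (left) and of distinct exonic circRNAs (right) in the young, middle-aged and old monkeys, with 1 point per library, the mean and the SD. The groups overlap in both.

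Age differences of single circles were tested over the 218 circRNAs that had 2 or more reads in 12 or more libraries, of which 22 were single-exon circles. These 22 held 3454 of the 6717 single-exon reads, so the comparison concerns abundant circles, and the rest of the 473 were not tested. Between old and young, 0 of the 22 were called by edgeR (quasi-likelihood test, adjusted by Benjamini-Hochberg, threshold 0.05), where 0% of the 218 were called. DESeq2 also called 0. At an unadjusted p below 0.05, edgeR gave 4 of the 22 and 12 of the 218 (5.5%). Between middle-aged and young it called 0 of the 22 and 0% of the 218, and DESeq2 called 0 of the 22. Here 1 of the 22 and 15 of the 218 (6.88%) had an unadjusted p below 0.05. Between old and middle-aged, 1 circle of the 218 was called (0.459%), and it was one of the 22. At an unadjusted p below 0.05 there were 2 of the 22 and 11 of the 218 (5.05%). The fitted log2 differences, old minus young, ran from -2.60 to 1.83, with 10 of the 22 higher and 12 lower in the old, a median of -0.04 over the 22 and -0.0006 over the 218. Between old and middle-aged 7 were higher and 15 lower (median -0.14, and -0.10 over the 218). With TMM normalization, which moved the median of all 218 to 0.12, these counts became 13 and 9. Counts were also simulated for the 218, once per size of change, with 1 common spread (dispersion 0.46) and 40 circRNAs changed together. Log2 changes of 2 were recovered for 17 of the 40 and changes of 3 for 30 of the 40 between old and young, so smaller differences could be missed. With fewer changed circRNAs the adjusted threshold is stricter, so this recovery does not give that of a single changed circle, which could be lower.

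The circle called between old and middle-aged was mmu_circ_003234 (chr11:12601546-12601939, minus strand), an exon of 394 nt listed on assembled transcripts, between introns of 21460 and 44948 nt. It had 1 read in old 4 and 1 in old 6, and was not listed in the other 5 old libraries. Of the 11 middle-aged libraries 9 listed it, with 1 to 12 reads, and 5 of the 6 young libraries did, with 1 to 5 reads. Its level was 0 to 2.03 per 10000 in the old (median 0), 0 to 35.2 in the middle-aged (median 8.37) and 0 to 15.0 in the young libraries (median 5.91), so the old libraries lay at the low end but overlapped with both other groups. Its log2 difference, old minus middle-aged, was -3.602 (SE 0.86, edgeR adjusted p = 0.026). Between young and old the log2 difference was -2.60 (SE 0.96, edgeR adjusted p = 0.67), and between young and middle-aged 1.00 (SE 0.68, adjusted p = 0.85). Without the monkeys under 1 year these were -3.42 (edgeR adjusted p = 0.18) and 0.15 (adjusted p = 0.98). No old library had the 2 reads that the filter asked for in 12 libraries, so mmu_circ_003234 entered the test through the other groups. That entry favours a low old level, so the call is given as a description. The call was lost with TMM normalization (adjusted p = 0.069), with either lower read minimum (0.12 and 0.057), without the 6 libraries with fewest junction reads (0.30), and without middle-aged 1 (0.097), middle-aged 2 (0.069), old 1 (0.091), old 2 (0.054) or old 5 (0.10). The in-depth old library listed this circle with 24 reads, a level of 6.82, which is above every old library at the lower depth. The in-depth young library had 23 reads, a level of 3.79.

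Of the other tested circles, 4 had an unadjusted p below 0.05 in a comparison without passing the adjusted threshold. For mmu_circ_015578 (chr6:139835902-139837098, 1197 nt, ENSMMUT00000000618), levels were 6.82 to 21.5 per 10000 in the young (median 8.05), 0 to 33.1 in the middle-aged (median 6.98) and 0 to 5.63 in the old libraries (median 2.02). Every young library lay above every old one, which held for 2 of the 218 circRNAs (0.917%), while old and middle-aged overlapped. The log2 difference was -1.79 between old and young (SE 0.67, edgeR adjusted p = 0.67) and -1.61 between old and middle-aged (SE 0.63, adjusted p = 0.74). The circle mmu_circ_006196 (chr14:117183236-117183702, 467 nt) was listed in 6 of 6 young libraries at 10.02 to 34.1 (median 17.7), against 0 to 23.4 in the middle-aged (median 6.98) and 0 to 16.3 in the old (median 7.59). The 3 monkeys under 1 year were at 22.6, 24.0 and 34.1, and the other 3 young ones at 10.02, 12.8 and 12.9, within the old range. Its log2 difference between old and young was -1.53 (SE 0.62, edgeR adjusted p = 0.67), and -0.85 without the monkeys under 1 year. For mmu_circ_016564 (chr7:128599862-128600291, 430 nt) this difference was -1.69 (SE 0.83, adjusted p = 0.87), or -1.002 without the monkeys under 1 year, and the group medians were 10.5 in the young, 3.46 in the middle-aged and 0 in the old libraries, in 4 of which it was not listed. The circle mmu_circ_010992 went the other way between young and middle-aged, with a log2 difference of 1.99 (SE 0.96, edgeR adjusted p = 0.69). It was at 0 to 12.9 in the young, at 0 to 44.2 in the middle-aged and at 0 to 64.8 in the old libraries, of which only 3 of 7 listed it (old minus young 1.83, SE 1.01, adjusted p = 0.90).

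The most abundant circles did not pass the test in any comparison. The log2 difference between old and young was -0.01 for mmu_circ_015464 (SE 0.52), 0.25 for mmu_circ_018406 (SE 0.62), 0.28 for mmu_circ_016934 (SE 0.74), 1.35 for mmu_circ_007566 (SE 0.90) and -0.995 for mmu_circ_010404 (SE 0.61), with edgeR adjusted p from 0.90 to 1.00. Levels of mmu_circ_010404 were between 30.03 and 51.1 in the 6 young libraries, a narrow band, whereas they ran from 0 to 43.5 in the middle-aged and from 2.03 to 39.6 in the old libraries. In contrast, mmu_circ_007566 was listed in 3 of 6 young, 10 of 11 middle-aged and 7 of 7 old libraries, with group medians of 4.84, 17.4 and 40.4. The remaining tested circles were mmu_circ_003171, mmu_circ_003825, mmu_circ_004374, mmu_circ_008099, mmu_circ_009034, mmu_circ_013236, mmu_circ_014010, mmu_circ_014927, mmu_circ_015451, mmu_circ_017685, mmu_circ_017981 and mmu_circ_019458. Among them, mmu_circ_004374 (chr12:37576657-37578016, 1360 nt, ENSMMUT00000030702) had levels of 9.07 ± 7.38 in the young, 4.77 ± 6.21 in the middle-aged and 11.1 ± 6.202 in the old libraries. The shortest tested circle, mmu_circ_003825 (chr11:7050779-7050911), had an exon of 133 nt between introns of 74 and 300 nt, and group levels of 7.09 ± 9.02, 5.61 ± 6.66 and 6.24 ± 2.74. For both circles the ranges of the 3 groups overlapped.

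**Figure D4:**
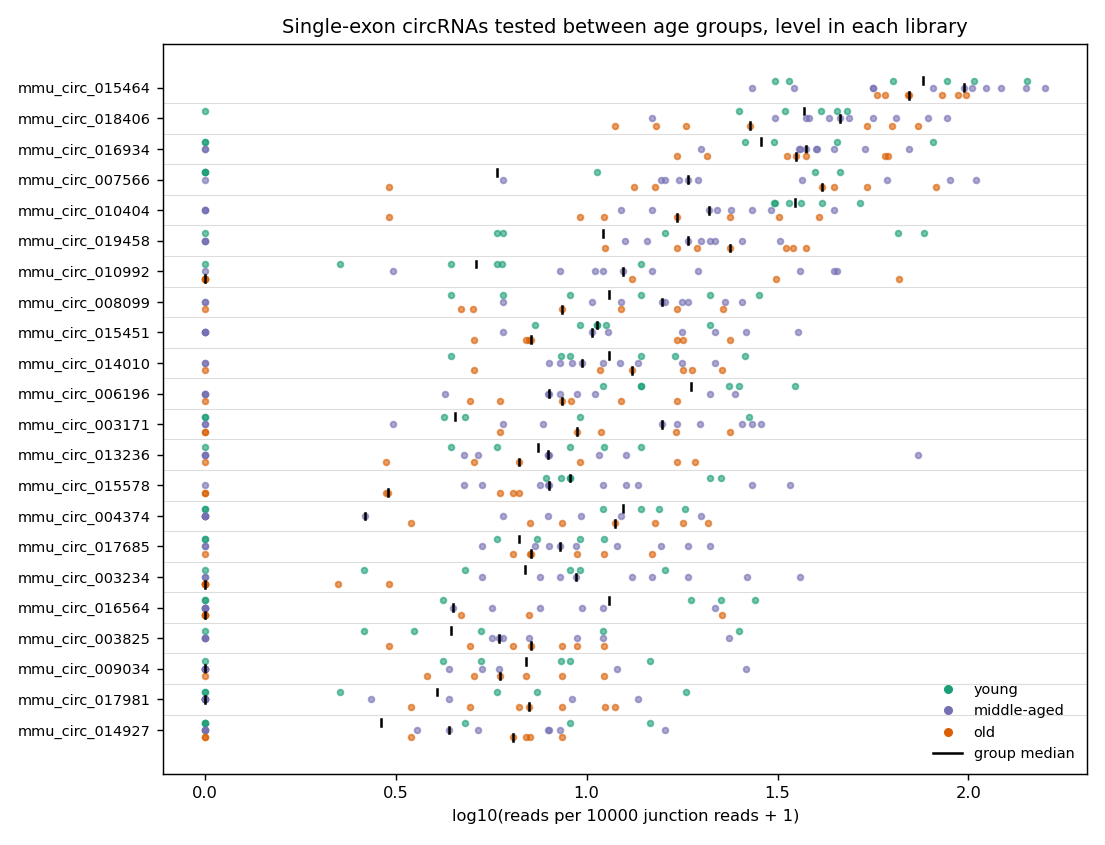
Level of the 22 tested single-exon circRNAs in each of the 24 libraries, as log10 of reads per 10000 junction reads plus 1 (x axis), with circles in the order of mean level (y axis), points coloured by age group and the group median as a bar. Points at 0 are libraries that do not list the circle, and the old libraries of mmu_circ_003234 lie at or near 0.

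With a lower read minimum of at least 1 read in at least 6 libraries, 5 of 1583 circRNAs were called between old and young (0.316%), and 2 of them were among the 113 single-exon circles then tested. Both were not listed in any young library. The circle chr11:47825972-47826184 (213 nt, plus strand) had 23 reads over the old libraries, 16 of them in old 4, 5 in old 6, and 1 each in old 2 and old 3. Its pooled old level was 7.11 times the limit that 3 reads over the young group would give (a level of 1.09), and 2.59 times that limit without old 4. The circle chr9:124281204-124281976 (773 nt, minus strand) had 17 reads in 4 of 7 old libraries, with 7 of them in old 3. Its pooled old level was 5.25 times that limit, and 3.29 times without old 3. The first was listed in 4 old and 2 middle-aged libraries and the second in 4 old and 3 middle-aged ones, so both met the minimum of 6 libraries through the groups compared with the young, and their calls are given as a description. The in-depth young library listed both circles, with 6 and 15 reads (levels 0.99 and 2.47), and the in-depth old library had 9 and 10 reads (levels 2.56 and 2.84). For the second circle the in-depth young level is thus above the limit used for the young group and near the in-depth old level. As both circles were on assembled transcripts alone, their absence from the young libraries cannot be told apart from their exons not being assembled there.

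The in-depth libraries, with 60704 junction reads in the young and 35205 in the old monkey, gave a second look at the single-exon circles. Their age labels, 0.005 and 40.1 years, are also those of young 1 and old 2. Whether the monkeys are the same is not given, so recovery here need not be recovery in other animals. Of the 473, 343 were found in at least 1 in-depth library (72.5%, 95% Wilson interval 68.3 to 76.3), 272 in the young, 252 in the old and 181 in both. Recovery rose with the reads a circle had over the 24 libraries. It was 84.0% (79.6 to 87.6) for circles with 3 or more reads, 48.7% (40.9 to 56.5) for those with 2 reads, and 23.3% (20.2 to 26.7) for the 631 with 1 read. Circles of 2 exons came close to this, with 83.6% at 3 or more reads, 48.5% at 2 and 26.0% at 1. Circles of 3 or more exons were recovered less often, with 74.4% at 3 or more reads, 45.7% at 2 and 21.9% at 1. The single-exon share of exonic reads was 7.85% (7.61 to 8.10) in the in-depth young and 10.2% (9.79 to 10.5) in the in-depth old library. These intervals cover counting error only, and with 1 library of each kind there is no test of age. Both values lie within the range of the 24 libraries, from 5.98% to 10.8%.

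The same circles led both in-depth libraries, with exceptions on either side. In the young library mmu_circ_015464 (513 reads, level 84.5), mmu_circ_016934 (234 reads), mmu_circ_006449 (220 reads), mmu_circ_010404 (146 reads) and mmu_circ_018406 (136 reads) had the most reads. In the old library they were mmu_circ_015464 (216 reads, level 61.4), mmu_circ_018406 (175 reads), mmu_circ_010992 (157 reads), mmu_circ_016934 (122 reads) and mmu_circ_010404 (103 reads). The circle mmu_circ_010992 had a level of 44.6 (38.2 to 52.1) in the in-depth old library and 0 reads in the in-depth young one. The old level, taken at its point value, is 90.2 times 0.494, the level that 3 reads would give in the in-depth young library. Among the lower-depth libraries it was highest in old 2, at 64.8 with 23 reads, the library whose monkey is labelled with the same age as the in-depth old one. It was listed with 3 reads (level 4.84) in young 1, whose label gives the same age as the in-depth young monkey. It was also listed in 4 other young libraries, at 1.26 in young 4 to 12.9 in young 3. These levels are above 0.494, and what the 0 in the in-depth young library reflects was not tested. Conversely, mmu_circ_006449 (chr14:38535929-38537027, minus strand, 1099 nt) had a level of 36.2 (31.8 to 41.3) in the in-depth young library and 0 reads in the in-depth old one. The young level is 42.5 times 0.852, the level that 3 reads would give in the in-depth old library. Over the 24 libraries mmu_circ_006449 was listed in 3, with 33 reads in young 1, 23 in middle-aged 3 and 6 in old 4, and in no other library. As it was on assembled transcripts alone, this pattern of high levels in a few libraries and none in the rest cannot be told apart from its exon being assembled in only those libraries. The circle mmu_circ_017685 (chr7:81358789-81359284, 496 nt, ENSMMUT00000016555) had 23 reads in the in-depth old and 0 in the in-depth young library, although 4 of the 6 young libraries listed it.

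**Figure D5:**
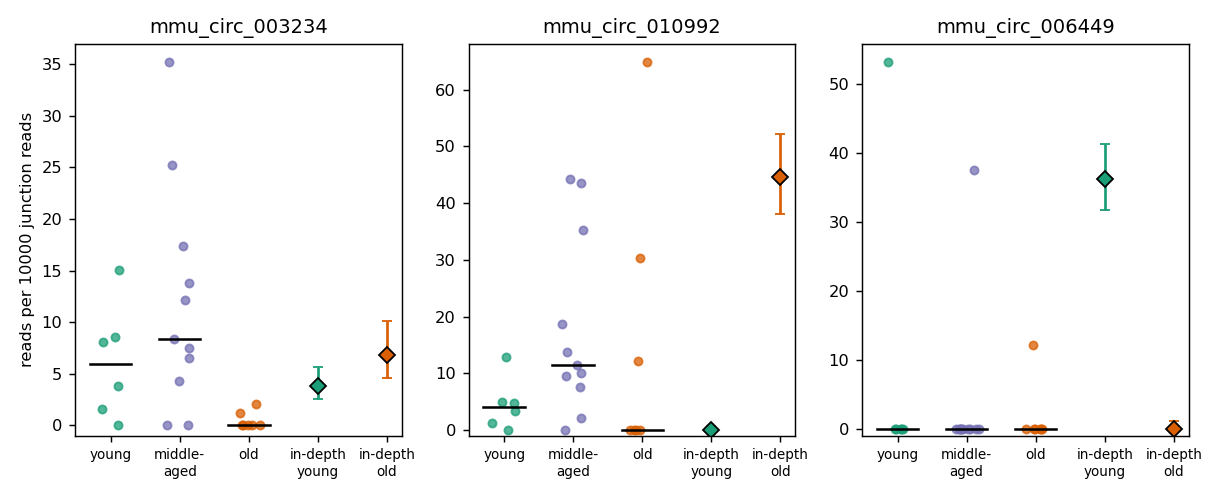
Level in reads per 10000 junction reads (y axis) of mmu_circ_003234, mmu_circ_010992 and mmu_circ_006449 in the young, middle-aged and old libraries (points, with the group median as a line) and in the 2 in-depth libraries (diamonds with 95% Wilson intervals). The in-depth old library lies above all 7 old libraries for mmu_circ_003234, and mmu_circ_006449 is at 0 in all but 3 of the 24 libraries.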

How the data were processed

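The values deposited by the authors are raw counts: for every circRNA of a library, the number of reads across its back-splice junction. Per the labels and the study's methods, RNA was digested with RNase R, sequenced paired-end, aligned to rheMac2 with TopHat2 2.0.14 (Bowtie2 2.2.4), assembled with Cufflinks 2.2.1, annotated with Ensembl and called with CIRCexplorer. Counts were taken as deposited, and library size was the total of junction reads. The authors' own factors were not used, as no deposited value gives them. Age groups were compared with edgeR 4.0.16 (R 4.3.3, quasi-likelihood test, robust, 3 groups in 1 fit) over circRNAs that had 2 or more reads in 12 or more libraries, and by exact permutation tests (scipy 1.17.1). Alternatives were DESeq2 1.42.0, TMM, other minimums and sample sets. The edgeR script was tested on simulated data.

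Circles were named by rule: those tested or called in any fit, the 10 most abundant, the 3 longest and shortest, the 5 with most reads in each in-depth library, hosts with 3 or more, and hosts with a gene symbol. Members and lists were chosen with earlier results of these data known. Identifiers come from the study's circRNA lists. Exon sequences were not used here. Intervals and limits of 3 reads cover counting error only. Each of the 24 libraries is 1 monkey. In the 24 libraries, 3 reads were 0.0296% to 0.544% of exonic junction reads.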

Additional observations from a re-analysis of the deposited data

Results flagged for a closer look

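In 4 of 48 groups examined (2 shares and 22 tested circles, in the 6 young and the 7 old libraries), 1 library stood far from the others of its group by Dixon's ratio. About 1 in 20 groups does so by chance where values are normally distributed. Levels of single circles are skewed and hold many zeros, so this rate need not hold for them, and 4 of 48 cannot be read as an excess. In the young, mmu_circ_003171 was at 25.7 per 10000 in young 5, with the next library at 8.58, mmu_circ_015451 was at 20.0 in young 2 with the next at 10.2, and mmu_circ_017981 was at 17.2 in young 3 with the next at 6.42. In the old, mmu_circ_016564 was at 21.7 in old 3 with the next at 6.06. The shares of single-exon circles had no such library in the young or the old group.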

How the results depend on the processing

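The longer exons of single-exon circles and their longer flanking introns against 2-exon circles kept their direction and passed the threshold under the 6 alternatives run. All 6 compared library medians, and none counted each circle once over the libraries. The other within-library comparisons changed in part. Weighted by reads, the length difference from circles of 3 or more exons became 9.75 nt and the downstream intron difference 980 nt, neither past the threshold. With 3 or more reads per circle, the upstream intron difference from circles of 3 or more exons was 991.5 nt and passed (adjusted p = 0.013). On Ensembl transcripts alone, reads per circle differed by -0.023 from 2-exon and -0.17 from longer circles, and the share of circles with 1 read by -0.028 and -3.80 percentage points, none past the threshold. With circles of 1 read included, the latter was -1.56 points against 2-exon circles (adjusted p = 0.24). Without mmu_circ_015464, an alternative added after seeing the data, reads per circle differed by 0.10 and 0.068 and the share of circles with 1 read by -2.95 points from 2-exon circles, none past the threshold, and the upstream intron difference from circles of 3 or more exons was 924 nt and passed. The number of single-exon circles was 1104 with 1 or more reads.

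No age difference in the shares passed the threshold under any alternative run. Middle-aged minus young turned to -0.067 points with intronic circles in the denominator and to -0.92 points without monkeys under 1 year, where old minus young was -1.22 points, and old minus young to 0.15 points with circles of 1 read. Brought to the same number of reads, the share of distinct circles differed by 0.00033 points between middle-aged and young. Leaving out 1 library, old minus young ran from -0.42 to 0.42, middle-aged minus young from -0.12 to 0.71 and old minus middle-aged from -0.53 to 0.080 points.

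The calls by edgeR were few and depended on the setting. Between old and young there were 5 calls, 2 of them single-exon, with at least 1 read in at least 6 libraries, and 0 in the other alternatives. Between middle-aged and young there were 2 with that minimum, 6 with at least 10 reads in total and 1 with DESeq2, none of them single-exon. Between old and middle-aged, the call of mmu_circ_003234 was lost, leaving 0, with TMM and both lower minimums and without the 6 libraries with fewest reads. Leaving out 1 library, an alternative added after seeing the data, gave 0 to 2 calls there (0 to 1 single-exon). There were 2 calls without old 6 and 0 without middle-aged 1, middle-aged 2, old 1, old 2 or old 5. Between middle-aged and young it gave 0 to 1 (1 without young 5). The log2 fold change of mmu_circ_003234 was between -4.07 and -3.32. These fits kept the circRNAs chosen on all libraries, so this range does not remove the effect of the filter on mmu_circ_003234. The log2 difference between old and young turned to 0.067 for mmu_circ_015464 with TMM and to -0.12 for mmu_circ_018406 without monkeys under 1 year. The causes were not tested. No paired analysis between age groups was possible because each of the 24 libraries is a different monkey and the replicate numbers are only names. Low counts limit what can be said of single circles, as the median circle had 4 reads.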
